A study of Homo sapiens with 18 samples.

Results

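Collagens are the trimeric proteins of the extracellular matrix, and the collagen genes were followed here by symbol in 2 human melanoma cell lines, CHL1 and A375, treated with inhibitors of the kinases CDK4 and CDK6 or of the arginine methyltransferase PRMT5. Every symbol of the count table made of COL, a number, A and a number was taken, which gave 42 genes of 20705 in the table. COL1A2 and COL10A1 were not analysed here. The 42 genes were placed in 9 classes: 10 fibrillar, 6 basement membrane network, 2 short-chain network, 5 beaded filament, 1 anchoring fibril, 10 fibril-associated (FACIT), 4 transmembrane, 2 multiplexin and 2 other genes.

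RNA was sequenced from 18 libraries in 9 groups of 2. CHL1 (wild type for BRAF and NRAS, mutant for p53) was grown in DMEM and held as a DMSO control, with palbociclib (CDK4/6i) at 1 µM or GSK3326595 (PRMT5i) at 500 nM for 72 hours, and with 1 µM palbociclib for 6 days. A375 (BRAF mutant, wild type for p53) was grown in RPMI and held under the same 3 conditions at 72 hours and, at 6 days, with DMSO or 1 µM palbociclib. The labels do not state that the libraries of a group came from separate cultures, so that each p-value measures a spread between libraries. That spread was estimated over all libraries of a fit, those of a line or all 18, and not over the compared groups alone. The 6-day CHL1 libraries were compared with the 72-hour control, so that palbociclib and time cannot be told apart there. Every comparison of a CHL1 treatment with a control used this control. The CDK4/6i and PRMT5i comparisons of A375 at 72 hours also used 1 control. In A375 the 6 libraries of 72 hours carry a different library-set name from the 4 of 6 days, so that time and library set cannot be told apart, and line and medium cannot be told apart either. The 8 CHL1 libraries carry the set name of the 6-day A375 libraries, so that at 72 hours line and library set cannot be told apart, in the levels or in the difference of response.

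Each collagen chain carries a repeat of the form Gly-X-Y, glycine and then any pair of amino acids, and 3 chains wind into a triple helix through it. Fibrillar collagens (types I, II, III, V, XI, XXIV and XXVII) form the fibrils of connective tissue, FACIT collagens sit on those fibrils, type IV forms the sheet of basement membranes, type VI forms beaded filaments around cells and type VII forms the fibrils that anchor skin to its basement membrane. Types XIII, XVII, XXIII and XXV are held in the cell membrane, and types XV and XVIII carry sugar chains and lie at basement membranes. Chains are hydroxylated and folded in the endoplasmic reticulum with the help of the chaperone HSP47 (SERPINH1), and their ends are trimmed after secretion. Type I and type VI chains are best known from fibroblasts, type II, IX and XI chains from cartilage, and type XVII from keratinocytes.

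The glycine repeat fixes the first bases of the glycine codon as GG and leaves the rest of the sequence freer, and collagen genes with the same protein pattern differ in base composition. The pattern is printed for 1 exon of 54 bases from each of 5 genes that the results below turn on. Each exon holds 6 whole Gly-X-Y triplets and is read in GRCh37 on the strand of the gene. Capitals mark the GG of the glycine codon that opens each triplet. The exons lie at chr1:103474019-103474072, minus strand (COL11A1, exon 15 of 67), chr1:86554857-86554910, minus strand (COL24A1, exon 7 of 60), chr6:70881856-70881909, plus strand (COL19A1, exon 41 of 51), chr6:33147008-33147061, minus strand (COL11A2, exon 15 of 66) and chr20:61456320-61456373, plus strand (COL9A3, exon 12 of 32).
COL11A1: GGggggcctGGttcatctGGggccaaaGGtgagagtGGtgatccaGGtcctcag
COL24A1: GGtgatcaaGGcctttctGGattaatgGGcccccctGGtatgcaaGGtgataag
COL19A1: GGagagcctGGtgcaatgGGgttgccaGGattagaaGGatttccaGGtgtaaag
COL11A2: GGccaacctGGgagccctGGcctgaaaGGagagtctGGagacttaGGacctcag
COL9A3: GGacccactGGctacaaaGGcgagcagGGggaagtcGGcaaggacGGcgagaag
Of the 18 last codon bases of such an exon, G or C fills 6 in COL11A1, 6 in COL24A1 and 5 in COL19A1. It fills 8 in COL11A2 and 14 in COL9A3. Over all 54 bases GC content was 63.0% in COL11A1, 51.9% in COL24A1, 51.9% in COL19A1, 61.1% in COL11A2 and 64.8% in COL9A3. In this exon COL11A1 thus stood above COL11A2, while their whole transcripts have 47.3% and 63.3%. Over the whole glycine repeat the G or C share of last codon bases was 24.6% in COL11A1, 23.2% in COL24A1 and 30.1% in COL19A1. It was 46.9% in COL11A2 and 62.3% in COL9A3. COL11A1 and COL11A2, which encode 2 chains of type XI collagen, have the same longest run of the repeat, 338 triplets. Over whole transcripts, GC content ran from 41.0% in COL19A1 to 67.4% in COL9A3.

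The libraries held 16213475 to 37424081 counts in genes. Values below are CPM, counts scaled by the TMM-adjusted library size, the 2 values of a group are its replicates 1 and 2, and a change is the log2 fold change of the edgeR quasi-likelihood fit with its standard error (SE); a gene is called at an adjusted p below 0.05 over all 20705 genes. Of 9 melanocyte and melanoma markers 6 were in the table, and their summed level was 155 to 285 CPM in CHL1 and 113 to 263 CPM in A375. A few genes made most of it. In the A375 72-hour control MITF stood at 108 to 114 CPM and S100B at 3.57 to 4.01. PMEL was at 1.11 to 1.17 CPM there, TYRP1 at 0.195 to 0.772, TYR at 0 to 1 counts and DCT at 0. In the CHL1 control MITF (66.2 to 71.8 CPM), DCT (70.4 to 96.1) and S100B (27.2 to 35.5) stood high. PMEL (0.957 to 1.04 CPM), TYRP1 (0.725 to 1.10) and TYR (1 to 2 counts) were low. SOX10, MLANA and MIA were not analysed here. The 6 fibroblast markers in the table summed to 22.1 to 44.6 CPM in CHL1 and 31.9 to 51.0 CPM in A375. PDGFRA was at 0 in each CHL1 library, and in the CHL1 control LUM stood at 11.1 to 14.6 CPM and PDGFRB at 7.27 to 7.36. The 4 epithelial markers in the table summed to 2.55 to 5.86 CPM in CHL1 and 18.6 to 238 CPM in A375, and PTPRC, the 1 leukocyte marker there, stood at 7.41 to 16.8 CPM in CHL1 and 0.145 to 0.588 CPM in A375; their part in the results was not tested. In bulk RNA, fewer cells of a kind and less RNA per cell cannot be told apart. In 4 libraries genes of high GC content stood low against genes of low GC content. The 10% of genes richest in GC minus the 10% poorest gave −2.49 and −1.98 on the log2 scale for CHL1 with PRMT5i. Both A375 controls of 6 days had such a shift as well, with −2.27 and −1.12, and the other 14 libraries ran from −0.17 to 0.50. These 4 libraries belong to the compared groups for PRMT5i in CHL1, for 6 days in A375 and for the lines in their response to PRMT5i. Every fit of a line or of all 18 libraries holds some of them, so that they also enter the spread behind the other comparisons. Where they belong to the compared groups, the calls of collagen genes are given with and without a correction for the GC shift. Class shares and the other gene lists are given without it.

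Type XI collagen led the collagen RNA of CHL1. Per kilobase of the longest transcript, the scale used here to set one gene beside another, the mean level of COL11A1 in the CHL1 control was 490.6 CPM per kb. COL18A1 followed with 83.5 CPM per kb, COL14A1 with 79.0, COL4A2 with 62.9 and COL9A3 with 55.2. COL11A1 alone made 45.8 to 51.1% of the summed collagen level per kb in the 6 CHL1 libraries without PRMT5i and 69.1 to 70.0% with it. In A375 no gene led in this way: in its 72-hour control COL9A3 stood at 74.1 CPM per kb, COL6A1 at 72.1, COL4A2 at 56.3, COL13A1 at 45.8 and COL6A2 at 36.8. COL9A3 and COL6A1 have close means there and the order of the pair turned between the 2 libraries. Collagen genes took 0.661 to 0.826% of the counts of a CHL1 library and 0.195 to 0.272% of an A375 library, and these ranges did not overlap. More than 3 counts were held by 38 to 42 of the 42 genes in a CHL1 library and by 34 to 42 in an A375 library, and over 1 CPM was reached by 29 to 34 and by 26 to 34.

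**Figure D1:**
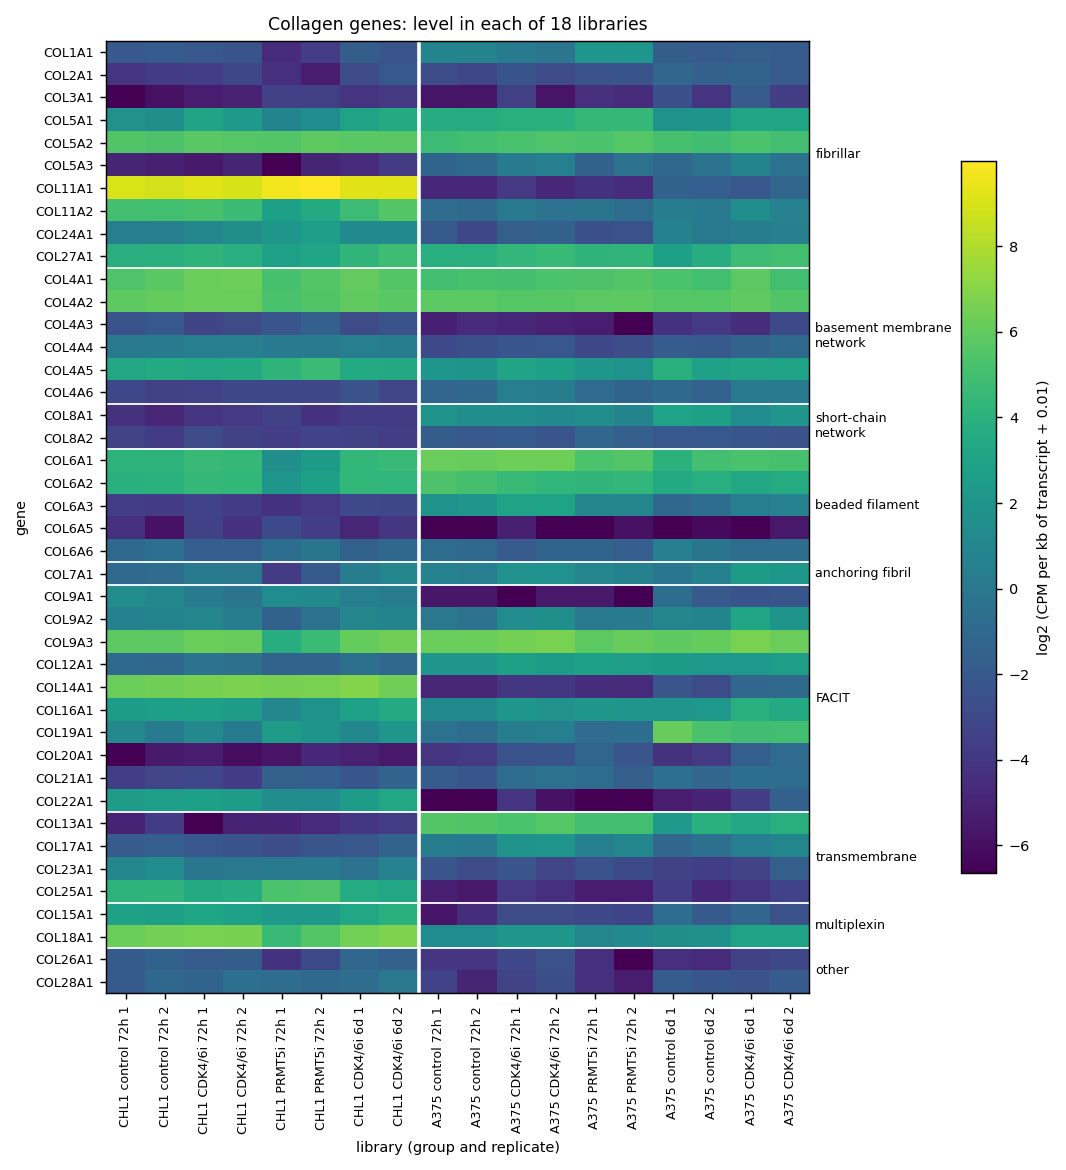
Heat map of log2(CPM per kb + 0.01) for the 42 collagen genes (rows, ordered by class, white lines between classes) in the 18 libraries (columns, white line between the lines). COL11A1 and COL14A1 are high in the 8 CHL1 libraries and low in the 10 A375 libraries, and COL13A1 and COL8A1 are the other way round.

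The shares of several classes differed between the lines, while those of transmembrane genes and of the class named other overlapped. Fibrillar genes made 54.5 to 60.6% of the summed level per kb in CHL1 without PRMT5i and 75.0 to 75.6% with it, against 13.96 to 24.3% in A375. Beaded filament genes made 3.28 to 3.83% in CHL1 without PRMT5i and 0.665 and 0.900% with it. In A375 they made 29.2 and 26.9% in the 72-hour control, 17.2 and 17.4% with PRMT5i and 8.81 and 14.3% in the 6-day control. FACIT genes took 41.1 and 35.3% in the A375 6-day control, more than in the 72-hour control with 20.2 and 20.7%.

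**Figure D2:**
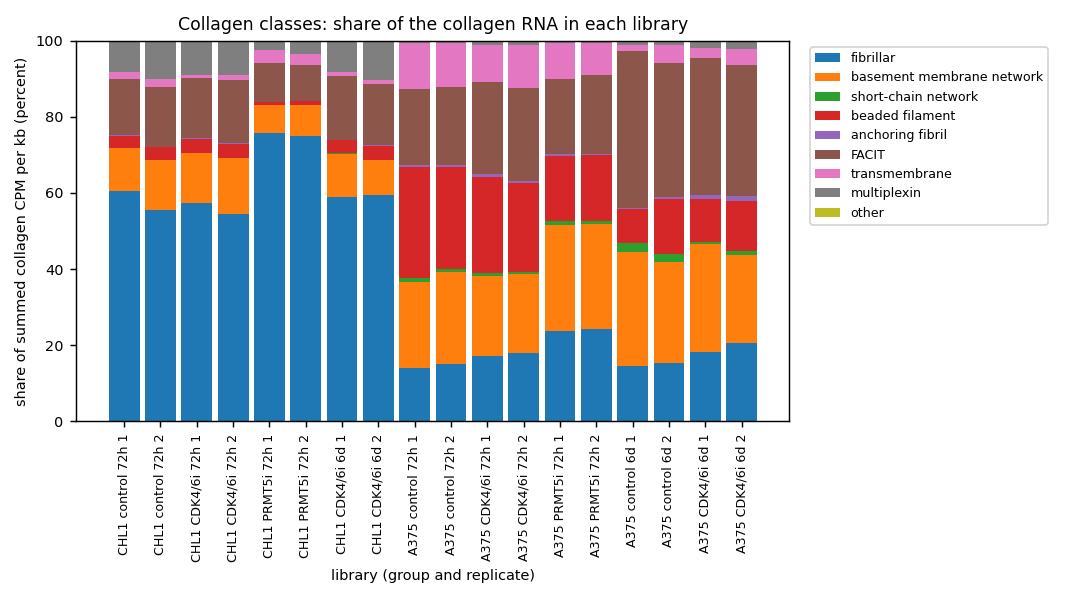
Stacked bars of the share (percent) of the summed collagen CPM per kb that each class holds, 1 bar per library. Fibrillar genes fill over 50% of each CHL1 bar and 13.96 to 24.3% of each A375 bar.

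Between the untreated lines most collagen genes differed. At 72 hours 20 of the 42 were higher in CHL1 and 15 were higher in A375, beside 29.3% of all genes higher and 29.6% lower. The median log2 difference, CHL1 minus A375, was 0.33 over the 42 genes (0.50 with genes at the counting floor of 3 counts per library set to their bounds) and −0.02 over all genes. At least 1 CPM in a compared group was reached by 37 genes, and 18 of those were higher and 14 lower in CHL1. Of the 35 calls 29 held in every fit that left out 1 of the 4 libraries.

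Among fibrillar genes 4 were higher in CHL1 and 3 in A375. COL11A1 stood at 3791 and 3398 CPM in CHL1 and at 0.193 and 0.195 CPM in A375, where each library held 4 counts. The groups lie far apart (log2 difference 14.14, SE 0.43, adjusted p = 2.10e-14). COL11A2 stood at 206 and 201 CPM in CHL1 against 3.96 and 3.32 in A375 (5.80, SE 0.36), so that both type XI genes were high in CHL1. COL24A1 and COL5A2, a chain of type V, were also higher in CHL1, by 2.98 and 0.55 on the log2 scale. COL1A1, which encodes the main chain of type I collagen, went the other way, with 1.42 and 1.63 CPM in CHL1 against 10.5 and 10.7 in A375 (−2.80, SE 0.27, adjusted p = 4.10e-08). COL5A1 (−1.92) and COL5A3 (−4.50) were lower in CHL1 as well, the other 2 chains of type V. COL27A1 showed no called difference, with 108 and 116 CPM in CHL1 and 108 and 114 in A375.

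The network and filament genes also divided between the lines. Of the 6 type IV genes COL4A3, COL4A4 and COL4A5 were higher in CHL1 (3.01, 3.04 and 1.39 on the log2 scale) and COL4A6 was lower (−2.10); COL4A1 and COL4A2, the common basement membrane pair, were not called. All 3 genes of the common type VI filament, COL6A1 (−2.06), COL6A2 (−1.23) and COL6A3 (−5.83), were lower in CHL1. COL6A3 held 22 and 19 counts in the CHL1 control, 0.760 and 0.674 CPM, against 38.3 and 43.8 CPM in A375. COL6A5, a less common type VI chain, was called higher in CHL1 on 10 and 2 counts against 0 and 0, at least 1.43-fold higher. COL8A1 (−6.56) and COL8A2 (−1.67), which form short-chain networks, and COL7A1 (−1.45), the anchoring fibril gene, were lower in CHL1.

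FACIT, transmembrane and multiplexin genes gave several differences that ran from near absence to high level. COL14A1 stood at 598 and 667 CPM in CHL1 and at 4 counts in each A375 library (11.63, SE 0.34, adjusted p = 1.54e-14). COL22A1 had 0 counts in both A375 controls and 1074 and 1156 in CHL1, at least 268-fold higher. COL9A1 had 1 count in each A375 control and was 218-fold higher in CHL1 (95% counting interval 60.2 to 1807), and COL25A1 with 3 and 2 counts was 1188-fold higher (509 to 3661); these intervals cover counting error only. COL13A1 was the reverse case, with 159 and 151 CPM in A375 and 2 and 6 counts in CHL1 (−10.07, SE 0.55). COL12A1 (−3.10) and COL17A1 (−2.06) were lower in CHL1, and COL20A1, on 0 and 3 counts in CHL1, was 8.33-fold higher in A375 (2.43 to 44.1). Both multiplexin genes, COL15A1 (8.25) and COL18A1 (5.00), were higher in CHL1, and so were COL26A1, 6.12-fold (2.63 to 17.5) on 3 and 3 counts in A375, and COL28A1 (2.68). COL18A1 shares 1563 exon bases with SLC19A1 on the other strand, and COL9A3 shares 155 with TCFL5; the methods name counting with HTSeq at its default settings, which use strand, but not whether the TruSeq RNA kit marked it. If it did not, reads of such a pair cannot be told apart.

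With palbociclib for 6 days in both lines, 16 genes were higher in CHL1 and 15 lower, beside 29.2% and 31.9% of all genes, and the median difference was −0.03 over the 42 genes and −0.07 over all genes. At least 1 CPM was reached by 39 genes, of which 15 were higher and 13 lower. COL11A1 (10.79), COL14A1 (7.69), COL25A1 (7.31), COL22A1 (5.31) and COL9A1 (2.78) were higher in CHL1 here too. Between the 72-hour controls COL11A1 differed by 14.14, COL14A1 by 11.63, COL25A1 by 10.16 and COL9A1 by 7.63. A few genes stood in another order than between the 72-hour controls. Treatment, time and, in A375, library set all differ between these 2 comparisons and cannot be told apart. COL19A1 was higher in CHL1 between the 72-hour controls (1.36, SE 0.39) and lower at 6 days (−3.24, SE 0.38), with 18.9 and 37.2 CPM in CHL1 against 253 and 276 in A375. COL6A2 turned from −1.23 to 0.83 and COL9A2 from 0.96 to −1.82. These 3 genes also differed between the A375 controls of 72 hours and 6 days, both without palbociclib. Their means there were 5.87 and 468 CPM for COL19A1, 127 and 43.6 CPM for COL6A2 and 2.48 and 5.29 CPM for COL9A2. Of the 31 calls 24 held in every fit without 1 library.

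CDK4/6i in CHL1 for 72 hours moved few collagen genes. None of the 42 rose and 2 fell, beside 2.27% of all genes higher and 2.72% lower in the edgeR fit. At an unadjusted p below 0.05, 6 were higher and 5 lower; DESeq2 called 3 higher and 4 lower, with 10.5% called of the genes it gave an adjusted p, and a fit of the compared groups alone called 9 higher and 4 lower, with 20.3% of all genes called. COL9A1, a type IX chain of cartilage fibrils, fell from 12.4 and 8.79 CPM to 5.11 and 3.56 CPM (−1.29, SE 0.24, adjusted p = 0.0139). COL23A1, a transmembrane collagen, fell from 5.80 and 7.52 CPM to 2.65 and 2.95 CPM (−1.25, SE 0.32, adjusted p = 0.0452). In both genes the treated libraries lie below both controls. The median change was 0.20 over the 42 genes (0.19 with bounds) and 0.00 over all genes, and 30 genes reached 1 CPM. The number of calls was 0 without control replicate 1, 1 without control replicate 2, 1 without CDK4/6i replicate 1 and 0 without CDK4/6i replicate 2.

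At 6 days in CHL1 the fibrillar genes led: 8 collagen genes rose and 2 fell, beside 8.83% of all genes higher and 7.8% lower, and 5 of the 8 were fibrillar. The median change was 0.39 over the 42 genes and 0.03 over all genes. COL5A1, which encodes a chain of the type V collagen that nucleates fibrils, rose from 29.0 and 25.6 CPM to 65.6 and 98.8 CPM (1.60, SE 0.29, adjusted p = 0.00392). COL7A1 rose from 4.73 and 5.60 CPM to 12.0 and 17.4 CPM (1.51, SE 0.38, adjusted p = 0.0182). The treated libraries of both genes lie above both controls. COL24A1 (0.77), COL27A1 (0.74), the FACIT gene COL21A1 (1.69) and COL15A1 (0.82) rose as well. COL2A1 rose by 1.68 on few counts, 7 and 9 in the control and 18 and 24 at 6 days. COL3A1 rose from 0 and 1 counts to 7 and 7, a ratio of 17.0 (2.58 to 717). COL9A1 (−0.81) and the transmembrane gene COL25A1 (−0.69) fell, the latter from 141 and 148 CPM to 96.5 and 80.1 CPM. Of the 6 fibroblast markers present 1 rose, and their sum went from 22.1 to 23.9 CPM in the control up to 43.1 to 44.6 CPM. PTPRC rose from 7.41 to 7.77 CPM up to 16.7 to 16.8 CPM. VWF, the 1 endothelial marker present, rose from 0 to 1 counts up to 10 to 16 counts. The part of these markers in the result was not tested. Of 33 collagen genes that reached 1 CPM, 6 rose and 2 fell. Each control library decided the count, which was 1 without control replicate 1, 0 without control replicate 2, 9 without 6-day replicate 1 and 3 without 6-day replicate 2, and no gene was called in all 4.

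In A375 CDK4/6i raised collagen genes of several classes. At 72 hours 12 of the 42 rose and 2 fell, beside 6.22% of all genes higher and 7.11% lower, and the median change was 0.62 over the 42 genes (0.60 with bounds) and 0.00 over all genes. All 14 calls were among the 29 genes that reached 1 CPM. A fit of the compared groups alone called 17 higher and 3 lower, with 33.5% of all genes called. COL17A1, the collagen of hemidesmosomes, rose from 7.05 and 6.40 CPM to 20.4 and 22.6 CPM (1.62, SE 0.27, adjusted p = 9.21e-04). COL4A6, a type IV chain, rose from 2.80 and 3.08 CPM to 9.46 and 8.41 CPM (1.54, SE 0.27, adjusted p = 0.00163). COL6A3 rose from 38.3 and 43.8 CPM to 80.7 and 83.2 CPM (0.94, SE 0.18, adjusted p = 0.00330). In these 3 genes the groups do not overlap and the pairs lie close together. FACIT genes gave 5 of the 12: COL9A2 (1.70), COL12A1 (0.58), COL19A1 (0.94), COL20A1 (1.65) and COL21A1 (1.38). The others were COL5A3 (1.46), COL4A5 (0.80), COL7A1 (1.10) and COL18A1 (0.71). COL1A1 fell from 10.5 and 10.7 CPM to 6.39 and 5.36 CPM (−0.91, SE 0.23, adjusted p = 0.0139), and COL6A2 fell from 138 and 115 CPM to 80.2 and 68.3 CPM (−0.83, SE 0.19, adjusted p = 0.00787), so that 2 genes of 1 filament, COL6A2 and COL6A3, moved in opposite directions. The number of calls was 4 without control replicate 1, 4 without control replicate 2, 4 without CDK4/6i replicate 1 and 3 without CDK4/6i replicate 2, and COL17A1 and COL4A6 were called in each. Of the 6 fibroblast markers present 1 rose, LUM, a proteoglycan of collagen fibrils, from 1.35 to 1.56 CPM up to 7.06 to 7.13 CPM (2.22, SE 0.30, adjusted p = 1.82e-04). FAP, a protease of activated fibroblasts, stood at 0.440 to 1.21 CPM in the control and 2.50 to 4.07 CPM with CDK4/6i and was not called (adjusted p = 0.0773). The 6 markers summed to 50.04 to 51.0 CPM in the control and 46.3 to 49.0 CPM with CDK4/6i, none was at 0, and their part in the result was not tested.

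At 6 days in A375, against the 6-day control, 15 genes rose and 3 fell, beside 21.8% of all genes higher and 21.3% lower. The median change was 0.51 over the 42 genes (0.48 with bounds) and 0.10 over all genes, and the calls lay among the 36 genes that reached 1 CPM. COL7A1 rose from 8.47 and 14.8 CPM to 50.5 and 41.7 CPM (1.98, SE 0.25, adjusted p = 4.04e-05). COL16A1, a FACIT gene, rose from 21.6 and 25.1 CPM to 79.6 and 61.5 CPM (1.59, SE 0.20, adjusted p = 3.68e-05). COL5A1 rose from 31.9 and 32.9 CPM to 72.9 and 74.5 CPM (1.18, SE 0.17, adjusted p = 8.01e-05). In these 3 genes the groups do not overlap. COL6A3 (1.48), COL18A1 (1.29), COL17A1 (1.58), COL27A1 (1.51), COL4A6 (1.41), COL14A1 (1.54), COL9A2 (1.82) and COL20A1 (2.99) rose by 1.29 to 2.99 on the log2 scale. COL22A1, with 3 and 4 counts in the control and 17 and 78 in the treated libraries, rose by 3.50 (SE 0.82), and COL5A3 (1.00), COL11A2 (0.84) and COL4A4 (0.77) rose by 0.77 to 1.00. COL8A1 fell from 46.5 and 40.0 CPM to 14.6 and 23.0 CPM (−1.21, SE 0.25, adjusted p = 0.00151). COL6A6 (−0.98) and COL19A1 (−0.82) fell too; COL19A1 had 613 and 324 CPM in the control and 253 and 276 with palbociclib. The 6-day control libraries are among the 4 that stood low in GC-rich genes, and across the 36 genes Spearman's rho of log2 change with transcript GC was 0.430, beside 0.590 over 13659 genes of at least 1 CPM; all these points share the same 4 libraries. With a GC correction of each library, 12 rose and 5 fell, with 37.8% of the genes that have a GC value called, and 14 of the 18 calls held. COL5A3, COL11A2, COL4A4 and COL19A1 lost theirs. A fit of the compared groups alone called 12 higher and 3 lower, with 28.3% of all genes called. In every fit without 1 of the 4 libraries 12 of the 18 calls held, and the count was between 13 (without control replicate 1) and 22 (without control replicate 2). Among the fibroblast markers LUM rose again, from 6.61 to 6.73 CPM up to 13.2 to 17.2 CPM (1.18, SE 0.26), and PDGFRB fell by 0.65 on the log2 scale. The list summed to 31.9 to 39.0 CPM in the control and 39.3 to 51.0 CPM with CDK4/6i, and its part in the result was not tested.

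The A375 comparisons at 72 hours and 6 days have separate controls. Of the genes that rose, 8 rose at both times, which is 66.7% of the 12 at 72 hours and 53.3% of the 15 at 6 days: COL4A6, COL5A3, COL6A3, COL7A1, COL9A2, COL17A1, COL18A1 and COL20A1. Over all genes 969 rose at both times, 75.2% of those that rose at 72 hours and 21.5% of those that rose at 6 days. COL19A1 rose at 72 hours and fell at 6 days.

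**Figure D3:**
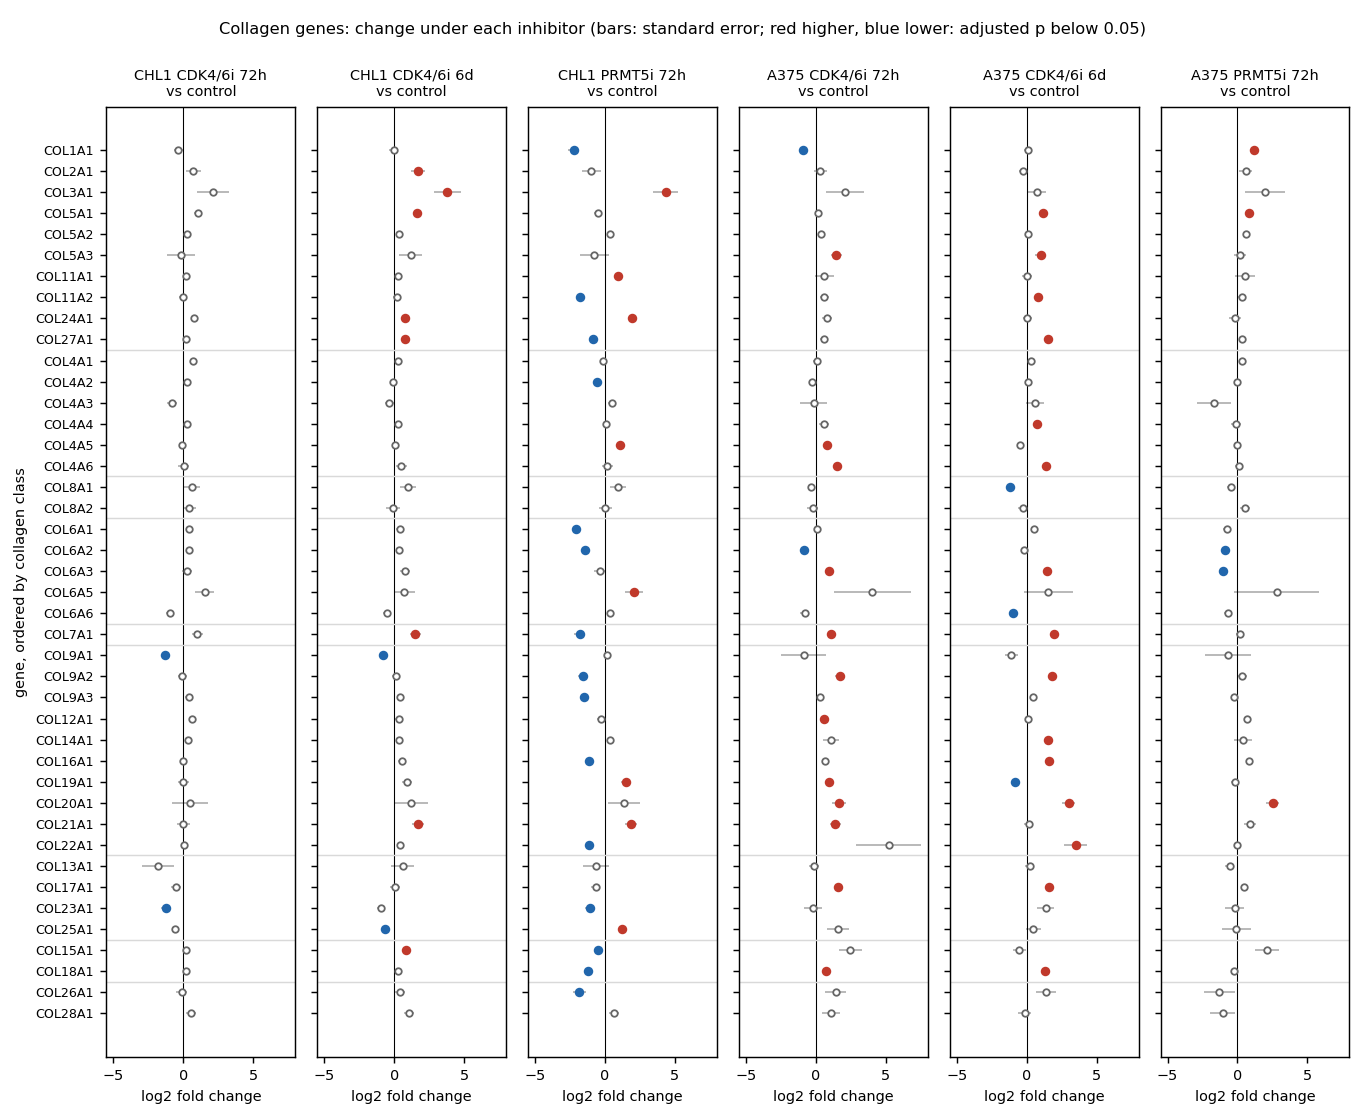
Log2 fold change with its standard error (x axis) for each of the 42 collagen genes (y axis) in 6 panels, 1 for each inhibitor comparison with its control; red points were called higher, blue points lower, open points were not called. A375 with CDK4/6i shows 12 red and 2 blue points at 72 hours and 15 red and 3 blue at 6 days, and CHL1 with PRMT5i shows 8 red and 15 blue.

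The response to CDK4/6i at 72 hours was compared between the lines within 1 fit of all 18 libraries. None of the 42 genes had a higher response in CHL1 and 1 had a lower one in the edgeR fit, beside 0.241% of all genes higher and 0.401% lower. At an unadjusted p below 0.05, 2 were higher and 8 lower, and DESeq2 called 1 higher and 2 lower, with 2.44% called of the genes it gave an adjusted p. The gene called by edgeR was COL17A1. In CHL1 it stood at 1.55 and 1.67 CPM in the control and 1.23 and 1.01 with CDK4/6i, against the rise in A375 given above (difference −2.20, SE 0.44, adjusted p = 0.0250). In each fit without 1 of the 8 libraries it was not called.

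With PRMT5i in CHL1, 8 of the 42 collagen genes rose and 15 fell, beside 26.4% of all genes higher and 27.6% lower, and the median change was −0.36 over the 42 genes and 0.00 over all genes. Of 31 genes that reached 1 CPM, 6 rose and 14 fell. Of the 23 calls 17 held in every fit without 1 of the 4 libraries. The GC shift described above ran through this comparison, since both PRMT5i libraries stood low in GC-rich genes: the genes that rose had a median transcript GC of 44.5% and those that fell 63.4%, and across the 31 genes rho of change with GC was −0.868, beside −0.817 over 13659 genes. The change after a GC correction of each library stands beside the changes below; where none is given, the gene was not called after the correction, COL3A1 excepted.

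Among the fibrillar genes 3 rose and 3 fell. COL11A1 rose from 3791 and 3398 CPM to 6197 and 7448 CPM (0.94, SE 0.16, adjusted p = 5.60e-04), and after GC correction the change was 0.98. COL24A1 rose from 9.67 and 10.3 CPM to 30.9 and 42.6 CPM (1.90, SE 0.22, adjusted p = 9.27e-05), 1.67 after correction. COL11A2 fell from 206 and 201 CPM to 43.6 and 74.3 CPM (−1.77, SE 0.28, adjusted p = 3.15e-04). So the 2 type XI genes moved in opposite directions, and the change of COL11A2 was not called after correction. COL1A1 fell from 1.42 and 1.63 CPM to 0.201 and 0.430 CPM (−2.25, SE 0.41, adjusted p = 6.81e-04), on 6 and 12 counts with PRMT5i. COL27A1 fell by 0.83 on the log2 scale. COL3A1 rose from 0 and 1 counts to 13 and 12, a ratio of 24.8 (4.05 to 1016).

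Of 6 basement membrane genes 1 rose and 1 fell, and of 5 beaded filament genes 1 rose and 2 fell. The anchoring fibril gene fell and the 2 short-chain network genes were not called. Of all genes 26.4% rose and 27.6% fell. COL6A1 fell from 72.6 and 72.3 CPM to 12.2 and 22.2 CPM (−2.06, SE 0.24, adjusted p = 9.42e-05), and it was the 1 falling gene that the GC correction kept, with −0.73. COL6A2 fell from 52.7 and 55.3 CPM to 14.9 and 24.1 CPM (−1.45, SE 0.21, adjusted p = 2.11e-04), 0.02 after correction. The treated libraries of these 2 genes, which encode chains of the type VI filament, are below both controls; COL6A1 spans chr21:47401684-47424964 and COL6A2 chr21:47518026-47552762 in GRCh37, both on the plus strand. COL4A2 fell from 382 and 429 CPM to 234 and 292 CPM (−0.60, SE 0.17, adjusted p = 0.00888), and after correction it was called in the other direction with 0.71. COL7A1 fell from 4.73 and 5.60 CPM to 0.604 and 2.29 CPM (−1.82, SE 0.42). COL4A5 rose from 65.5 and 75.8 CPM to 117 and 172 CPM (1.05, SE 0.20, adjusted p = 8.38e-04), 1.49 after correction. COL6A5 rose on 10 and 2 counts to 34 and 18 (2.09, SE 0.63), and its call was lost with the correction.

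FACIT genes gave 2 rises and 4 falls. COL9A3 fell from 138 and 138 CPM to 33.2 and 64.7 CPM (−1.47, SE 0.25, adjusted p = 5.13e-04), and COL9A2, COL16A1 and COL22A1 fell by 1.60, 1.12 and 1.12 on the log2 scale. COL19A1 rose from 19.9 and 10.2 CPM to 50.6 and 33.6 CPM (1.50, SE 0.38, adjusted p = 0.00570), with 0.78 and no call after correction, and COL21A1 rose by 1.85, with 1.48 after correction. The transmembrane gene COL25A1, whose protein is found in plaques in the brain, rose from 141 and 148 CPM to 309.8 and 336 CPM (1.18, SE 0.16, adjusted p = 1.58e-04), 0.49 after correction. COL23A1 fell by 1.09. Both multiplexin genes fell, COL18A1 from 495 and 605 CPM to 162 and 311 CPM (−1.20, SE 0.26, adjusted p = 0.00189) and COL15A1 by 0.54. COL26A1 fell by 1.84 on the log2 scale, to 4 and 10 counts.

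After GC correction 10 collagen genes rose and 1 fell in this comparison, with 28.7% of the 16338 genes that have a GC value called, and the median change over the 42 genes was 0.39. The 7 calls that held were COL3A1, COL11A1, COL24A1, COL4A5, COL21A1 and COL25A1, which rose, and COL6A1, which fell. Of the 15 falls 9 turned to values above 0, and COL5A1 (0.71), COL5A2 (0.48) and COL4A1 (0.71) were called with the correction alone. What part of the calls goes with the GC shift was not tested beyond this correction.

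**Figure D4:**
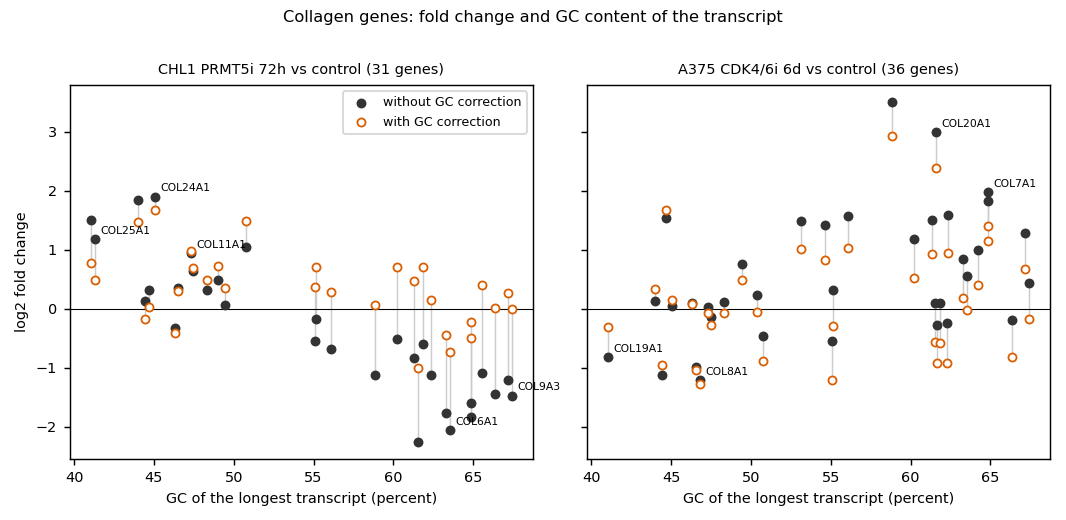
Log2 fold change (y axis) against transcript GC content in percent (x axis) for collagen genes of at least 1 CPM, CHL1 with PRMT5i (31 genes) and A375 with CDK4/6i at 6 days (36 genes); filled points are without and open points with the GC correction. In CHL1 the filled points descend with GC, rho −0.868.

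In A375 PRMT5i moved 5 collagen genes: 3 rose and 2 fell, beside 0.874% of all genes higher and 1.74% lower. The median change was 0.14 over the 42 genes (0.18 with bounds) and 0.00 over all genes, and all 5 calls were among the 29 genes that reached 1 CPM. COL1A1 rose from 10.5 and 10.7 CPM to 24.3 and 25.0 CPM (1.20, SE 0.22, adjusted p = 0.0102), and COL5A1 rose from 104 and 102 CPM to 185 and 182 CPM (0.82, SE 0.16, adjusted p = 0.0158). These 2 fibrillar genes stood apart from the control without overlap. COL6A2 fell from 138 and 115 CPM to 66.3 and 70.2 CPM (−0.91, SE 0.19, adjusted p = 0.0188) and COL6A3 fell from 38.3 and 43.8 CPM to 20.3 and 20.2 CPM (−1.03, SE 0.19, adjusted p = 0.0103). COL6A1, which encodes another chain of that filament, stood at 311 and 295 CPM in the control and 166 and 193 CPM with PRMT5i (−0.77, adjusted p = 0.112). COL20A1, a FACIT gene, rose from 8 and 10 counts to 62 and 27 (2.51, SE 0.49, adjusted p = 0.0142). The count of calls was 0 without control replicate 1, 0 without control replicate 2, 0 without PRMT5i replicate 1 and 1 (COL20A1) without PRMT5i replicate 2. The 5 calls held with the GC correction, which called 6 genes higher and 3 lower, with 8.67% of the genes that have a GC value called. A fit of the compared groups alone called 6 higher and 4 lower, with 8.99% of all genes called. DESeq2 called 5 higher and 3 lower, with 5.76% called of the genes it gave an adjusted p.

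The lines differed in their response to PRMT5i in 17 of the 42 genes: the CHL1 response was higher in 3 and lower in 14, beside 18.8% of all genes higher and 22.1% lower. For COL1A1 a fall in CHL1 stood against a rise in A375 (CHL1 minus A375 −3.48, SE 0.42, adjusted p = 7.51e-05). COL5A1 stood at 29.0 and 25.6 CPM in the CHL1 control and 15.3 and 22.5 CPM with PRMT5i, not a called change, against the rise in A375 (−1.36, SE 0.34, adjusted p = 0.00374). COL24A1 (2.05), COL4A5 (1.04) and COL19A1 (1.65) responded more upward in CHL1. COL16A1 (−1.95), COL7A1 (−2.04), COL11A2 (−2.10), COL9A2 (−1.96) and COL9A3 (−1.25) responded more downward in CHL1. With the GC correction 5 differences were higher and 2 lower, with 20.9% of the genes that have a GC value called. The 4 of the 17 that held were COL1A1 (−2.15), COL24A1 (1.81), COL4A5 (1.55) and COL12A1 (−1.08). With the correction COL9A3 (0.30), COL27A1 (0.19), COL6A1 (0.094) and COL18A1 (0.55) turned from below to above 0 without a call, and COL4A2 was called in the other direction (0.78). In every fit without 1 of the 8 libraries 11 of the 17 held, and the count fell to 11 without A375 control replicate 1 and to 11 without A375 PRMT5i replicate 2.

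**Figure D5:**
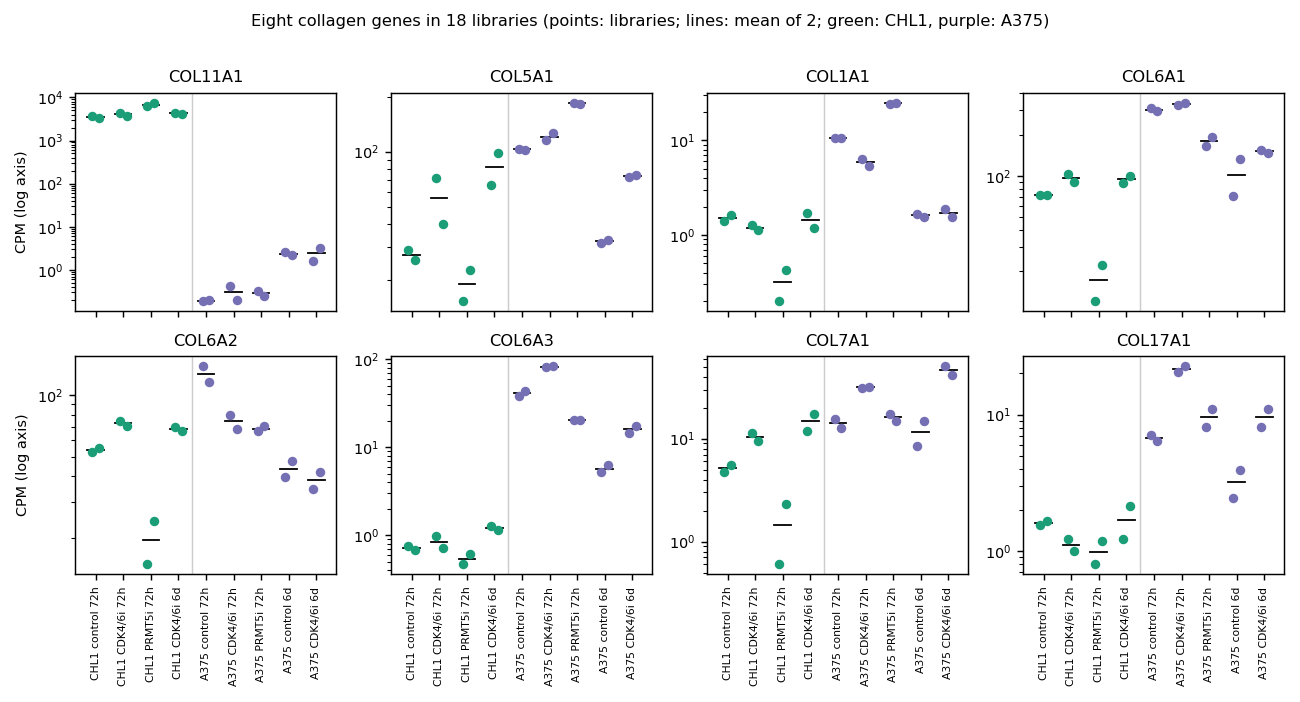
CPM on a log axis (y) in each library, by group (x), for COL11A1, COL5A1, COL1A1, COL6A1, COL6A2, COL6A3, COL7A1 and COL17A1; points are libraries (CHL1 green, A375 purple) and lines the mean of 2. COL1A1 falls to 0.201 and 0.430 CPM with PRMT5i in CHL1 and rises to 24.3 and 25.0 CPM in A375.

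The 2 A375 controls stood apart in several collagen genes; their difference is given as values and was not tested. COL19A1 stood at 6.66 and 5.08 CPM in the 72-hour control and at 613 and 324 CPM in the 6-day control, 79.8 times as high. Among genes near absent at 72 hours, the mean of COL9A1 went from 0.0486 to 1.88 CPM and that of COL15A1 from 0.122 to 2.42. The means of COL11A1 and COL14A1 went from 0.194 CPM to 2.37 and 1.33 CPM, and that of COL26A1 went from 0.146 to 0.107 CPM. COL1A1 stood at 10.5 and 10.7 CPM at 72 hours and 1.68 and 1.53 at 6 days, COL6A3 at 38.3 and 43.8 against 5.17 and 6.26, and COL13A1 at 159 and 151 against 17.5 and 50.4. KRT8, a keratin of simple epithelia, moved with them: it stood at 136 to 188 CPM in the 6 A375 libraries of 72 hours and 12.8 to 25.3 CPM in the 4 of 6 days. Time, library set and the GC shift of the 6-day control cannot be told apart in these values, and COL19A1 shares 85 exon bases with LMBRD1 on the other strand. If the 72-hour control is put in the place of the 6-day one, 23 genes rose and 6 fell at 6 days, with 31.2% of all genes called, and COL19A1, COL5A1, COL6A3 and COL6A6 changed sign.

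Type IV genes lie in 3 head-to-head pairs, each pair with its starts close together and transcribed away from a shared gap. The gap of COL4A1 and COL4A2 is 126 bases (chr13:110307158-110307283, GRCh38.p14, plus strand, from RefSeq), the gap of COL4A3 and COL4A4 418 bases and that of COL4A5 and COL4A6 379 bases. The gap of the first pair is printed because both genes' levels are compared here across every library; capitals mark 1 CCAAT and 1 GGGCGG.
COL4A1 and COL4A2 gap: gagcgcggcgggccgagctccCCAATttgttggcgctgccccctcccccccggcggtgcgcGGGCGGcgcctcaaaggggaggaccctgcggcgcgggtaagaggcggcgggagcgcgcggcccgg
Its GC content was 80.2%. Searched on both strands, CCAAT was found in 21.1% and GGGCGG in 34.6% of the last 126 upstream bases of 35116 promoters; a match is a description of the letters. The ratio of COL4A1 to COL4A2 per kb was 0.723 to 1.07 in CHL1 (median 0.993) and 0.565 to 0.913 in A375 (median 0.721), so that the pair stayed near each other in each of the 18 libraries. The pair COL4A5 and COL4A6 did not: its ratio was 64.6 to 236 in CHL1 and 5.42 to 29.9 in A375. COL4A3 stood below COL4A4 in each library, at 0.0711 to 0.298 in CHL1 and 0 to 0.238 in A375. COL4A3 held only 0 to 37 counts in an A375 library, with 2 and 0 under PRMT5i, so that these A375 ratios rest on few counts.

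Genes that make, process and bind collagen were counted from lists, without the GC correction. Of all genes, 21.8% rose and 21.3% fell in A375 at 6 days, 6.22% and 7.11% in A375 at 72 hours of CDK4/6i and 26.4% and 27.6% in CHL1 with PRMT5i. In CHL1 with CDK4/6i 8.83% rose and 7.8% fell at 6 days and 2.27% and 2.72% at 72 hours, and with PRMT5i in A375 0.874% and 1.74%. The 25 synthesis genes are hydroxylases, chaperones, folding enzymes and others such as COLGALT1, CREB3L1, TMEM38B, MIA3 and SEC23A. Of the 25, 12 rose and 5 fell in A375 at 6 days, 4 rose at 72 hours, and in CHL1 with PRMT5i 7 rose and 11 fell. The 18 extracellular processing genes include matrix genes such as SPARC, FN1 and LUM. Of the 18, 6 rose and 2 fell in A375 with CDK4/6i at 72 hours and again 6 rose and 2 fell at 6 days. In CHL1 5 rose and 1 fell at 6 days. Of 10 receptor genes 5 rose and 3 fell with PRMT5i in CHL1, where 4 processing genes rose and 7 fell; the GC shift of these libraries runs through these counts too. In A375 3 receptor genes rose and 2 fell at 6 days and 2 rose at 72 hours of CDK4/6i. In CHL1 2 synthesis genes rose and 1 fell at 6 days, 2 receptor genes rose, and at 72 hours of CDK4/6i 2 processing genes and 1 receptor gene rose. PRMT5i in A375 raised 1 synthesis gene and 1 receptor gene, P4HA2 (0.79) and ITGA2 (0.77). Between the 72-hour controls, where 29.3% of all genes were higher in CHL1 and 29.6% lower, 6 synthesis genes were higher in CHL1 and 7 lower, 7 processing genes were higher and 9 lower, and 6 receptor genes were lower, with the collagen receptor gene DDR2 at −6.46. In A375 at 72 hours of CDK4/6i FKBP10, a folding enzyme of collagen, rose by 1.10 (SE 0.19, adjusted p = 0.00139), and SPARC, a collagen-binding matrix protein, rose by 1.50 (SE 0.28, adjusted p = 0.00215). In CHL1 with PRMT5i the hydroxylase genes LEPRE1 and PLOD1 fell by 1.60 and 1.75 and P4HB, a subunit of prolyl 4-hydroxylase, fell by 1.51; PCOLCE, an enhancer of the trimming of fibrillar collagen, fell by 1.39 and LOX, the enzyme that starts collagen crosslinks, rose by 1.67.

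SERPINH1, which encodes the collagen chaperone HSP47, was near absent in CHL1. It held 0 to 2 counts in each of the 8 CHL1 libraries, 0 in both controls, and 1591 to 3288 counts, 47.8 to 150 CPM, in each of the 10 A375 libraries. The level in the A375 72-hour control was at least 857-fold higher than in the CHL1 control. CHL1 held its high COL11A1 RNA, 3398 to 7448 CPM, in the same libraries. PCOLCE ran from 1.48 to 6.50 CPM in CHL1 and 15.3 to 38.9 in A375, SPARC from 164 to 354 CPM against 618 to 2245, and LOX overlapped, at 0.114 to 1.43 CPM against 0.211 to 0.729. For PCOLCE and SPARC the ranges of the lines do not overlap.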

How the data were processed

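The authors deposited 1 table of raw read counts per gene symbol for the 18 libraries. The table is named as normalised reads, but its values are whole numbers with unequal totals per library, and they were treated as raw counts. The submitters' processing notes name HISAT2 2.0.4, HTSeq 0.11.2, SAMtools 1.18, Picard 2.17.3, FastQC 0.11.6 and GRCh37 (hg19). The methods state default HTSeq settings, which use strand, and a TruSeq RNA kit, without saying whether it marks strand. Everything after the counts was computed here in R 4.3.3.

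Counts were tested with the quasi-likelihood test of edgeR 4.0.16 after TMM scaling, without a filter on low counts, at a Benjamini-Hochberg adjusted p below 0.05 over 20705 genes. Treatments were fitted within a line, and comparisons between lines on all 18 libraries in 9 groups. The script was tested on simulated data with the same spread in every gene and group and no GC shift. That test does not cover the unequal spread and the GC shift of these libraries. DESeq2 1.42.0, other scalings, a count filter, a fit of the compared groups alone, a replicate block, a stricter fold, leaving out each library and a GC correction (loess of the log2 level on transcript GC, span 0.4) were alternatives.

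Folds against a group at 3 counts or fewer in each library are bounds (no counts) or ratios with an exact 95% interval of the counts. Every collagen gene was kept. From the other lists, at most 3 called genes of smallest adjusted p per list and comparison were named, with SERPINH1, PCOLCE, LOX and SPARC. SLC19A1, LMBRD1, TCFL5, KRT8, PTPRC, VWF, PDGFRA, PDGFRB, FAP and LUM were chosen after their values were seen. The same holds for the melanocyte markers MITF, DCT, S100B, PMEL, TYRP1 and TYR. Members and lists were chosen with earlier results of these data known. GC content came from the GRCh37 annotation, and gap and promoter sequences from RefSeq.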

Additional observations from a re-analysis of the deposited data

Results flagged for a closer look

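Each value here is the response in CHL1 minus the response in A375 at 72 hours on the log2 scale, tested as a difference in the edgeR fit of all 18 libraries, and each was singled out because the lines differed in it at an adjusted p below 0.05. For CDK4/6i there was 1, COL17A1, the collagen of hemidesmosomes, at −2.20.

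For PRMT5i there were 17. The fibrillar genes COL1A1 (−3.48), COL5A1 (−1.36), COL11A2 (−2.10) and COL27A1 (−1.21) responded lower in CHL1, and COL24A1 (2.05) responded higher. Among network genes COL4A2 stood at −0.63 and COL4A5 at 1.04, and COL6A1 stood at −1.32 and COL7A1 at −2.04. Among FACIT genes COL9A2 (−1.96), COL9A3 (−1.25), COL12A1 (−1.0) and COL16A1 (−1.95) were lower and COL19A1 (1.65) was higher. COL17A1 (−1.21), COL15A1 (−2.68) and COL18A1 (−0.99) were lower. With the GC correction 4 of the 17 held and 5 turned from below to above 0.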

How the results depend on the processing

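The number of collagen genes called, 2 in CHL1 after 72 hours of CDK4/6i (4.98% of the genes with an adjusted p called), was 7 by DESeq2 (10.5%), 13 with only the compared groups (20.3%) and 8 with the GC correction (13.5%). For PRMT5i in A375 it was 8 (5.76%), 10 (8.99%) and 9 (8.67%) under these, and 3 with a log2 change of at least 1. That stricter fold left 5 for CHL1 at 6 days and 7 for A375 at 72 hours of CDK4/6i. For the line difference in CDK4/6i it was 2 with median-of-ratios scaling (0.638%), 3 by DESeq2 (2.44%), 11 with only the compared groups (8.68%) and 2 with the GC correction (3.04%). The GC correction left 11 for PRMT5i in CHL1 (28.7%) and 7 for the line difference in PRMT5i (20.9%), and the 72-hour control gave 29 for A375 at 6 days (31.2%).

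Without any 1 library the number of calls ran from 0 to 1 for CHL1 at 72 hours of CDK4/6i, 0 to 9 for CHL1 at 6 days, 18 to 22 for CHL1 with PRMT5i, 3 to 4 for A375 at 72 hours of CDK4/6i, 13 to 22 for A375 at 6 days, 0 to 1 for A375 with PRMT5i, 29 to 34 and 26 to 31 for the lines at 72 hours and 6 days, 11 to 17 for the line difference in PRMT5i and was 0 for that in CDK4/6i. Fits of this kind leave a group with 1 library, assumed to vary like the other groups.

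With a replicate block the counts were 25 for A375 at 72 hours of CDK4/6i (42.3% of all genes), 18 for PRMT5i in A375 (11 higher and 7 lower, 29.5%) and 3 for the line difference in CDK4/6i (2.41%). The labels do not say that the numbers pair libraries; the correlations of deviations were 0.218 to 0.481 in A375 at 72 hours and −0.336 to 0.444 in CHL1. The block ended no call of the 107 gene results it was run on.

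Gene values turned sign with the GC correction and with the 72-hour control. With PRMT5i in CHL1 the corrected log2 change was 0.47 for COL27A1, 0.71 for COL4A2, 0.021 for COL6A2, 0.0011 for COL9A3, 0.16 for COL16A1, 0.071 for COL22A1, 0.41 for COL23A1, 0.37 for COL15A1 and 0.27 for COL18A1. The corrected line difference was 0.19 for COL27A1, 0.78 for COL4A2, 0.094 for COL6A1, 0.30 for COL9A3 and 0.55 for COL18A1. Against the 72-hour control A375 at 6 days gave −0.53 for COL5A1, −1.40 for COL6A3, 0.012 for COL6A6 and 5.45 for COL19A1. The cause was not tested. Genes of few counts, such as COL3A1 and COL6A5, are limited by depth.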
